A study of Mus musculus with 9 samples.

Results

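Schlafen genes encode a family of mouse proteins named after the German word for sleep, because the first members were found as genes that hold lymphocytes out of the cell cycle. The members described here, in eosinophils sorted from mouse quadriceps muscle, are Slfn1, Slfn2, Slfn3, Slfn4, Slfn5, Slfn8 and Slfn9. They were taken by name, 7 of the 11 genes whose symbol begins with Slfn and 7 of 54146 genes in the deposited table. They were proposed with results of these libraries in view, so their differences between groups are given as a description, with no test of their own.

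The cells were live CD45+ CD11c- Gr1- MHCII- SiglecF+ cells of the muscle infiltrate, from adult mice in 3 groups of 3 libraries. In mdx_IL5Tg mice, the mdx background, a dystrophin-deficient strain that models Duchenne muscular dystrophy, was combined with an interleukin-5 transgene. The mdx mice carried the dystrophin defect without the transgene, and the IL5Tg mice, by the sample titles, the transgene without mdx. Interleukin-5 is the main growth and survival factor of eosinophils. The titles and the strain label disagree on the IL5Tg mice, since the label names mdx as the strain of every sample, and the groups follow the titles. The sources used here name neither the promoter that drives the transgene nor the sex of the mice nor how many animals stand behind a library. Values are TMM-normalised CPM (counts scaled to a common library size), computed from the authors' expected counts, and libraries are named by their group and the S number of their column.

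All Schlafen proteins share a core fold that can bind RNA. Short members (Slfn1 and Slfn2) hold little else, intermediate members (Slfn3 and Slfn4) add a linker region, and long members (Slfn5, Slfn8 and Slfn9) add a helicase-like region at the C terminus. Type I interferon induces several members in mouse and human cells through response elements in their promoters. In mouse T cells and monocytes, loss of Slfn2 function breaks quiescence and the cells die on activation. Slfn2 also shields transfer RNA from cleavage in mouse T cells under oxidative stress. Slfn4 is known as a gene of activated mouse macrophages and other myeloid cells. Human SLFN11, a long member, restricts retroviruses and acts on transfer RNA.

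The classes were visible in the length of the longest coding sequence, which was 1011 bases for Slfn1 and 1134 for Slfn2, 1806 for Slfn4 and 1920 for Slfn3, and 2652 for Slfn5 and 2730 for both Slfn8 and Slfn9 (GENCODE release M21, GRCm38). The 7 members lie side by side on chromosome 11. On the plus strand are Slfn5 (82951349 to 82964840), Slfn2 (83065112 to 83070678), Slfn1 (83116849 to 83122670), Slfn4 (83175186 to 83190216) and Slfn3 (83191330 to 83215154). On the minus strand are Slfn9 (82978390 to 82991830) and Slfn8 (83002158 to 83020810), with the pseudogene Slfn10-ps (83028130 to 83040042) beside them. Slfn14 (83275110 to 83286726, minus strand), a ribosome-associated member in other mammals, closes the cluster, and Slfnl1 lies apart on chromosome 4.

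The sequence just before the start of each gene is shown because it divides the long members from the rest. Promoters of 300 bases (250 before the start and 50 after it, RefSeq, GRCm38.p6) were found for all 7 members. They were searched on both strands for the interferon-stimulated response element (GAAA, then any 2 bases, then GAAA), for the gamma-activated site TTCNNNGAA and for the ETS core AGGAAGT. No match of these 3 motifs overlapped another in a member. The ETS core was added to the search after the sequences had been seen. Slfn5, Slfn8 and Slfn9 each held 1 response element, with its far end 155, 48 and 45 bases before the start, and no ETS core. Across all promoters of this length, 3.44% hold the response element. Capitals mark the match in its strand's letters, so TTTCGTTTTC is the response element read on the opposite strand, and 40 bases are shown on either side where they lie before the start.
Slfn5, chr11:82951907-82951996, plus strand: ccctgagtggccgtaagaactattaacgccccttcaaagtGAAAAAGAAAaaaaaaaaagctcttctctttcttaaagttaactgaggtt
Slfn8, chr11:83020811-83020898, minus strand: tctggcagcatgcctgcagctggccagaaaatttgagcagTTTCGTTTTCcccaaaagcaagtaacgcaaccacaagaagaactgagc
Slfn9, chr11:82991831-82991915, minus strand: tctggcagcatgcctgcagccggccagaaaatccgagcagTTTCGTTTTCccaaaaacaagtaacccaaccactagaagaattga

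Slfn8 and Slfn9 carry the same letters at the match, and their upstream sequences were the most alike of the family. Over the 250 bases before their starts, 206 of 242 aligned positions were identical (85.1%), and the other pairs of members were between 49.1% and 64.2% identical. RefSeq gives Slfn8 a second start, from which the same match lies 136 bases upstream. The RefSeq start of Slfn5 lies inside the gene's span in GENCODE, so its window is upstream of that start only.

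Slfn1, Slfn2, Slfn3 and Slfn4 held no match to the response element in this window, and each held the ETS core, the letters around which ETS factors such as Spi1 (PU.1), a regulator of myeloid cells, bind DNA. The core is present in 9.35% of all promoters. The gamma-activated site was in none of the 7 and in 8.30% of all promoters. A match is only a match of letters, and no binding was measured. Capitals mark the core on either strand.
Slfn1, chr11:83116706-83116792, plus strand: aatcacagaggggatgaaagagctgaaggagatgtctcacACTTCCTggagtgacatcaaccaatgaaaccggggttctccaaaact
Slfn2, chr11:83065017-83065103, plus strand: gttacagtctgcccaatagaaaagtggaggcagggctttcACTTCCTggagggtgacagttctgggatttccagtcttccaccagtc
Slfn3, chr11:83191231-83191329, plus strand: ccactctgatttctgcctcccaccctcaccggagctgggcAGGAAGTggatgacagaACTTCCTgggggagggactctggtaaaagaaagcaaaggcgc
Slfn4, chr11:83175073-83175159, plus strand: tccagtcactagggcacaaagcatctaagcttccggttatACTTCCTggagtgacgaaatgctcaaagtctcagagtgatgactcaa

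The far end of the core lay 74, 55 and 73 bases before the start in Slfn1, Slfn2 and Slfn4, and Slfn3 holds the core in both directions, at 59 and 42 bases.

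Total counts ran from 43297851 to 58368283 in mdx_IL5Tg, from 29200231 to 41627444 in mdx and from 26752780 to 30824793 in IL5Tg. Il5, which checks the transgene label, averaged 695 ± 30.3 CPM in mdx_IL5Tg, 0.334 ± 0.0682 in mdx and 434 ± 105 in IL5Tg (SD, n = 3 each). The eosinophil markers Siglecf and Ccr3 were well above 0 in every group, at 520 ± 67.8 and 1372 ± 65.6 CPM in mdx_IL5Tg, 157 ± 24.7 and 1017 ± 181 in mdx, and 353 ± 35.4 and 968 ± 124 in IL5Tg. The cells were sorted on SiglecF, so the presence of Siglecf is no separate check of identity. These 2 genes do not stand for the list of 12 eosinophil genes given below. The median log2 change of that list was -1.13 in mdx_IL5Tg against IL5Tg, with 5 of 12 above 0, whereas Siglecf and Ccr3 had higher means in mdx_IL5Tg. It was 1.42 in mdx_IL5Tg against mdx and -2.39 in mdx against IL5Tg. Libraries of a group differed by more than sampling noise, with 26.2 to 194 chi-square units per gene between them. The largest values, 192 and 194, were those of mdx S5 with mdx S4 and S6, which were at 32.8 from each other. In mdx S5 0.383% of counts were mitochondrial, beside 1.28% to 2.29% in the other libraries. One library often led its group: IL5Tg S7 was the highest IL5Tg library for all 7 members, and mdx S4 the highest mdx library for 6. In bulk samples like these, fewer cells of a type and less RNA per cell cannot be told apart.

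Slfn2 was the dominant Schlafen transcript in all 9 libraries. Divided by exon length, which allows genes to be compared, its mean level was 210 CPM per kb in mdx_IL5Tg, 245 in mdx and 93.7 in IL5Tg. Slfn5 came next with 9.37 in mdx_IL5Tg, 18.6 in mdx and 16.1 in IL5Tg, and the other 5 members lay between 0.191 and 4.10 CPM per kb. Slfn2 alone made up 95.5%, 92.4% and 94.5% of the summed level of the 7 members per kb in the mdx_IL5Tg libraries. Its share was 87.2%, 93.5% and 87.2% in the mdx libraries, and 77.8%, 84.9% and 84.5% in the IL5Tg libraries. IL5Tg libraries thus held the lowest shares of Slfn2, with no overlap with the other 2 groups.

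Below Slfn2 and Slfn5 the order of the mean levels per kb differed between groups. In mdx_IL5Tg the order was Slfn1, Slfn3, Slfn8, Slfn9 and Slfn4, where only Slfn3 and Slfn8 had overlapping libraries among neighbours. In mdx it was Slfn8, Slfn1, Slfn3, Slfn4 and Slfn9, and the pairs Slfn8 and Slfn1, Slfn3 and Slfn4, and Slfn4 and Slfn9 overlapped. In IL5Tg it was Slfn3, Slfn1, Slfn9, Slfn4 and Slfn8, and each neighbour overlapped the next. Slfn8 was therefore the third in mdx, the fifth in mdx_IL5Tg and the last in IL5Tg.

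**Figure D1:**
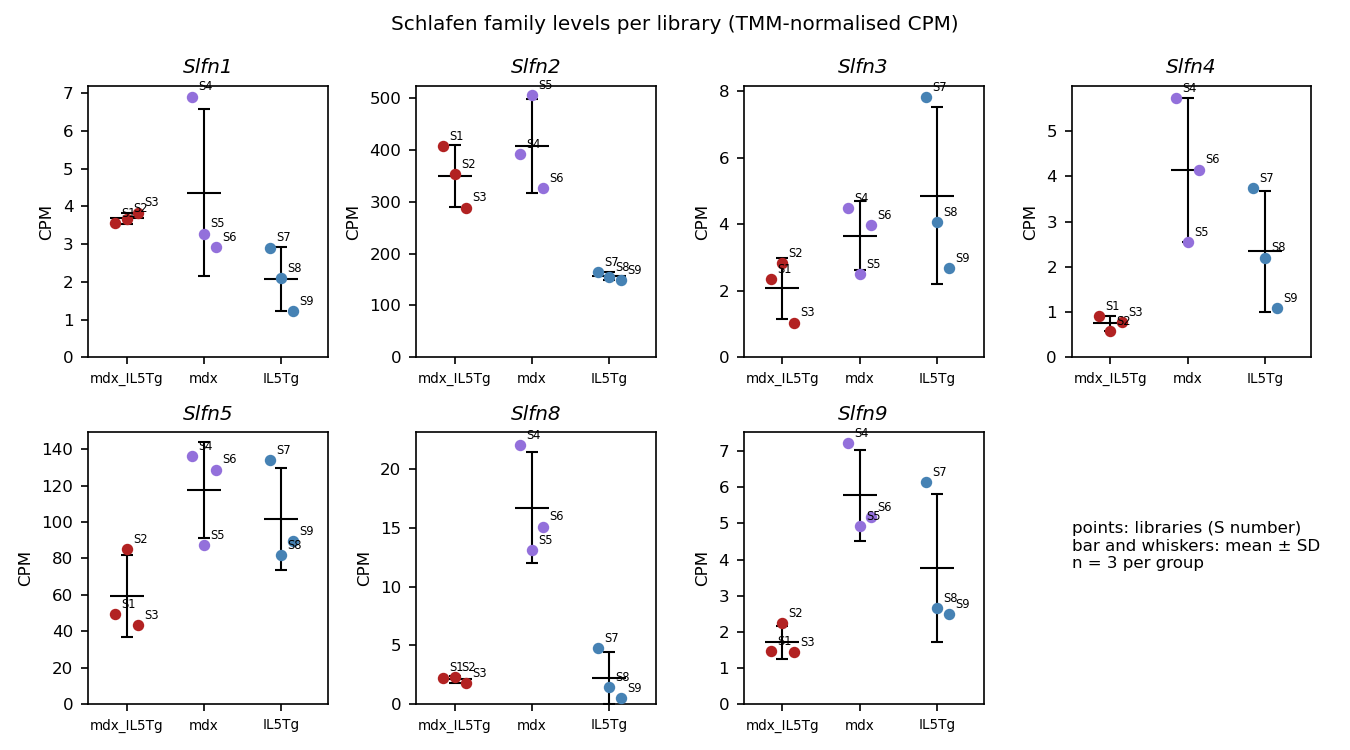
CPM of each member (linear axis, scaled per panel) in the 9 libraries, 1 panel per member, with mdx_IL5Tg, mdx and IL5Tg from left to right, points for libraries labelled by S number and bars with whiskers for the mean ± SD of 3 libraries. Slfn8 lies between 13.1 and 22.0 CPM in mdx and at or below 4.74 CPM in the other 6 libraries, and Slfn2 lies at or below 164 CPM in IL5Tg and at or above 288 CPM elsewhere.

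Among the short members, Slfn2, the quiescence factor, was at 406, 353 and 288 CPM in mdx_IL5Tg (S1, S2, S3), 392, 505 and 326 CPM in mdx (S4, S5, S6) and 164, 155 and 149 CPM in IL5Tg (S7, S8, S9). All mdx_IL5Tg and mdx libraries lay above every IL5Tg library, and these 2 groups overlapped each other. The mean was 349 ± 59.0 CPM in mdx_IL5Tg, 407 ± 90.5 in mdx and 156 ± 7.67 in IL5Tg (SD, n = 3 each). The log2 change was 1.16 (SE 0.18) in mdx_IL5Tg against IL5Tg, 1.39 (SE 0.18) in mdx against IL5Tg and -0.22 (SE 0.18) in mdx_IL5Tg against mdx.

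Slfn1, the other short member, first described in mouse thymocytes, had 3.56, 3.68 and 3.84 CPM in mdx_IL5Tg, 6.91, 3.28 and 2.92 CPM in mdx and 2.91, 2.11 and 1.23 CPM in IL5Tg. All 6 mdx_IL5Tg and mdx libraries were above all 3 IL5Tg libraries, though mdx S6 and IL5Tg S7 nearly touched. Its log2 change was 0.82 (SE 0.39) in mdx_IL5Tg against IL5Tg and 1.07 (SE 0.39) in mdx against IL5Tg. It was -0.25 (SE 0.38) in mdx_IL5Tg against mdx, and 0.32 without mdx S4, so mdx S4 decides that sign.

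Among the intermediate members, Slfn4, the myeloid activation gene, had 0.909, 0.579 and 0.783 CPM in mdx_IL5Tg, 5.74, 2.54 and 4.15 CPM in mdx and 3.74, 2.21 and 1.08 CPM in IL5Tg. The mdx_IL5Tg libraries were the lowest 3 of the 9, and mdx and IL5Tg overlapped. They rested on 46, 23 and 30 expected counts. On the log2 scale the change was -1.63 (SE 0.47) in mdx_IL5Tg against IL5Tg, -2.45 (SE 0.47) in mdx_IL5Tg against mdx and 0.82 (SE 0.44) in mdx against IL5Tg. Of its 50-base windows, 10.8% occur in other genes, 6.28% in Slfn3 and 4.02% in Gm11427, and its expected count was not whole in 1 of 9 libraries. With Slfn3 and Slfn4 summed, the value against mdx was -1.46.

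Slfn3, studied in T cells and in rodent gut epithelium, had 2.35, 2.82 and 1.04 CPM in mdx_IL5Tg, 4.48, 2.51 and 3.98 CPM in mdx and 7.81, 4.06 and 2.68 CPM in IL5Tg. All 3 groups overlapped. Log2 changes were -1.23 (SE 0.45) in mdx_IL5Tg against IL5Tg, -0.82 (SE 0.45) in mdx_IL5Tg against mdx and -0.40 (SE 0.44) in mdx against IL5Tg, the last at 0.06 without IL5Tg S7. Slfn3 is the least certain of the 7, since 15.6% of its windows occur in another gene and its expected count was not whole in 9 of 9 libraries.

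The long members had their lowest means in mdx_IL5Tg and their highest in mdx. Slfn8 was at 2.23, 2.27 and 1.78 CPM in mdx_IL5Tg, 22.0, 13.1 and 15.1 CPM in mdx and 4.74, 1.46 and 0.522 CPM in IL5Tg. Every mdx library was above every other library, and the mdx_IL5Tg libraries lay within the range of IL5Tg. Its log2 change was -3.00 (SE 0.58) in mdx_IL5Tg against mdx and 2.89 (SE 0.58) in mdx against IL5Tg. In mdx_IL5Tg against IL5Tg it was -0.11 (SE 0.57). IL5Tg S7 moves the values against IL5Tg: the value in mdx_IL5Tg was 1.10 when it was left out, and the value in mdx was 4.21 when it and mdx S5 were left out.

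Slfn9, the close relative of Slfn8, had 1.46, 2.24 and 1.44 CPM in mdx_IL5Tg, 7.22, 4.92 and 5.18 CPM in mdx and 6.14, 2.66 and 2.50 CPM in IL5Tg. The mdx_IL5Tg libraries were below all others, and mdx overlapped IL5Tg through IL5Tg S7. The log2 change was -1.14 (SE 0.38) in mdx_IL5Tg against IL5Tg, -1.76 (SE 0.38) in mdx_IL5Tg against mdx and 0.62 (SE 0.37) in mdx against IL5Tg. Slfn8 and Slfn9 were not in a fixed proportion. The ratio of Slfn8 to Slfn9 CPM was 1.53, 1.01 and 1.24 in mdx_IL5Tg, 3.05, 2.66 and 2.92 in mdx and 0.771, 0.549 and 0.209 in IL5Tg, with no overlap between any groups. This ratio does not depend on how libraries are scaled, but 14.6% of the windows of Slfn8 and 11.5% of those of Slfn9 occur in another gene. Summed with Slfn10-ps, the pair was at -2.43 in mdx_IL5Tg against mdx and at 1.76 in mdx against IL5Tg.

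Slfn5, the most abundant long member, had 49.4, 85.1 and 43.4 CPM in mdx_IL5Tg, 136, 87.4 and 129 CPM in mdx and 134, 81.7 and 89.5 CPM in IL5Tg. The mdx_IL5Tg libraries were below every mdx library, and only mdx_IL5Tg S2 reached above an IL5Tg library. The mean was 59.3 ± 22.5 CPM in mdx_IL5Tg, 118 ± 26.4 in mdx and 102 ± 28.2 in IL5Tg. The log2 change was -0.78 (SE 0.28) in mdx_IL5Tg against IL5Tg, -0.99 (SE 0.28) in mdx_IL5Tg against mdx and 0.21 (SE 0.28) in mdx against IL5Tg. Its reads were the cleanest of the long members, with 3.37% of windows in another gene and whole counts in every library. An antisense gene overlaps it, Slfn5os, which is listed at 0 in all 9 libraries.

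The remaining Slfn genes were low. Slfn10-ps, a transcribed pseudogene, had 1.07, 0.730 and 0.940 CPM in mdx_IL5Tg, 4.08, 2.18 and 2.27 CPM in mdx and 1.63, 1.30 and 1.42 CPM in IL5Tg, an order like that of Slfn9. Its log2 change in mdx_IL5Tg against mdx was -1.64 (SE 0.34, edgeR adjusted p = 0.0085), with no overlap. Over all genes, 11.5% were called lower there. It shares 13.5% of its windows with Slfn9 and 11.8% with Slfn8, and how far its counts are separate from theirs was not tested. Slfnl1 lay between 0.0504 and 0.435 CPM in the 9 libraries. Slfn14 reached at most 9 counts in a library and was not tested.

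Set side by side, the members moved in different ways by comparison. In mdx_IL5Tg against mdx, all 7 log2 changes were below 0, with a median of -0.99 beside -0.13 over all 15886 genes tested. Slfn4, Slfn5, Slfn8 and Slfn9 passed the threshold used over all genes (edgeR's quasi-likelihood test, Benjamini-Hochberg adjusted p under 0.05), all lower in mdx_IL5Tg, and the same 4 were lower with no overlap between groups. Over all genes, 21.6% passed, 11.5% as lower, and 42.0% did not overlap, 23.2% as lower. The member count was 2 without mdx_IL5Tg S1. Slfn5 no longer passed when mdx_IL5Tg S1 or S3, mdx S4 or S6, or IL5Tg S9 was left out, nor did Slfn9 when mdx_IL5Tg S1 was.

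In mdx_IL5Tg against IL5Tg, 2 log2 changes were above 0 and 5 below, with a median of -0.78 beside -0.05 over all genes. Slfn2 alone passed, as higher, where 7.22% of all genes passed and 4.35% as higher. Slfn1 and Slfn2 were higher without overlap and Slfn4 and Slfn9 lower without overlap, where 35.9% of all genes did not overlap, 19.4% as higher and 16.4% as lower. In mdx against IL5Tg, 6 of 7 were above 0 with a median of 0.82 beside 0.01 over all genes, and Slfn2 and Slfn8 passed as higher, where 20.8% of all genes passed and 11.8% as higher. Slfn1, Slfn2 and Slfn8 were higher without overlap, where 41.9% of all genes did not overlap and 22.2% were higher without overlap. The comparisons share groups, and these libraries led to the choice of the members, so nothing is read from these counts about the family.

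**Figure D2:**
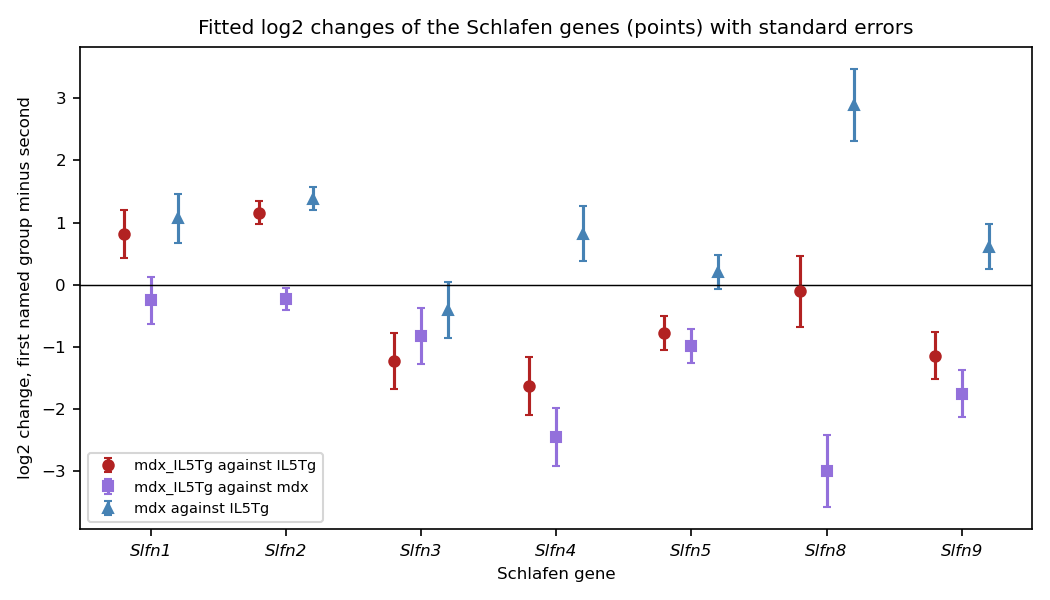
Log2 change of each member in the 3 comparisons (points, with bars for ± 1 SE), with mdx_IL5Tg against IL5Tg, mdx_IL5Tg against mdx and mdx against IL5Tg side by side and a line at no change. Slfn2 lies above 1 in both comparisons with IL5Tg, and Slfn8 reaches -3.00 in mdx_IL5Tg against mdx and 2.89 in mdx against IL5Tg.

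Because interferon induces several Schlafen genes, a list of 30 interferon response genes was set beside them (chosen from textbook knowledge, with earlier results of these libraries known). All 30 were tested. Over all genes, 4.35% were called higher and 2.87% lower in mdx_IL5Tg against IL5Tg, 10.1% and 11.5% in mdx_IL5Tg against mdx, and 11.8% and 8.96% in mdx against IL5Tg. In mdx_IL5Tg against mdx, 19 of 30 fell and 29 of 30 log2 changes were below 0, with a median of -1.15. Oasl1, which limits the translation of Irf7 in mouse cells, fell by 2.39 on the log2 scale (SE 0.39, edgeR adjusted p = 0.0025), at 4.30 ± 2.20 CPM in mdx_IL5Tg and 22.5 ± 4.88 in mdx. Trim30a, a brake on inflammatory signalling, fell by 1.09 (SE 0.15, edgeR adjusted p = 0.0011), and its libraries did not overlap, with a mean of 18.2 ± 1.32 CPM in mdx_IL5Tg and 38.7 ± 4.43 in mdx. Ifit2, which binds viral RNA, changed by -1.78 (SE 0.39), Ifih1, the sensor MDA5, by -1.13 (SE 0.25) and Parp14, an ADP-ribosyltransferase, by -0.82 (SE 0.18).

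The list count in this comparison leans on single libraries: it was 2 when mdx_IL5Tg S1 was left out, 5 for mdx_IL5Tg S3, 4 for mdx S4 and 10 for mdx S6. In mdx against IL5Tg, 13 of 30 rose and 29 of 30 log2 changes were above 0, with a median of 0.94. Oasl1 rose by 2.86 (SE 0.40, edgeR adjusted p = 0.00092) and Rsad2, the antiviral enzyme viperin, by 1.80 (SE 0.33). Ifit2 rose by 1.87 (SE 0.39), Irf7, the amplifier of type I interferon production, by 0.91 (SE 0.17) and Trim30a by 0.70 (SE 0.15). The count was 6 when mdx S4 was left out, 5 for IL5Tg S8, 4 for IL5Tg S9 and 20 for IL5Tg S7 with mdx S5.

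In mdx_IL5Tg against IL5Tg, 0 of 30 passed with edgeR, 0 with DESeq2 and 0 with limma voom, and 3 had an unadjusted p under 0.05, all lower in mdx_IL5Tg. The median was -0.01, with 15 of 30 log2 changes above 0. In the comparisons with mdx most list genes shared a direction: 29 of 30 were above 0 in mdx against IL5Tg, and 1 was above 0 in mdx_IL5Tg against mdx. The size of the change varied, as in 2 genes picked here after their values were seen. Isg15 was at 26.0 ± 5.90 CPM in mdx_IL5Tg, 25.4 ± 12.4 in mdx and 22.4 ± 7.43 in IL5Tg. Oasl2 was at 38.9 ± 2.83 CPM in mdx_IL5Tg, 45.2 ± 2.35 in mdx and 38.2 ± 2.57 in IL5Tg. Slfn8, with a response element, was at -0.11 in mdx_IL5Tg against IL5Tg, and at 1.10 when IL5Tg S7 was left out. Slfn5 and Slfn9, each also with a match to the response element, were lower in mdx_IL5Tg than in IL5Tg by 0.78 and 1.14 on the log2 scale, neither past the threshold. Without IL5Tg S7 these values were -0.48 and -0.54. Slfn2, without a response element, was higher and passed. In mdx_IL5Tg against mdx, Slfn5, Slfn8 and Slfn9 passed as lower, and so did Slfn4, which held no response element. Whether the element bears on these values was not tested. Of the 22 list genes with a promoter in the table, 13 (59.1%) held the response element in any of their promoters. The gamma-activated site was in 4 (18.2%) and the ETS core in 0. Counted by gene in the same way, the shares over all genes with a promoter were 3.99%, 9.55% and 10.7%.

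**Figure D3:**
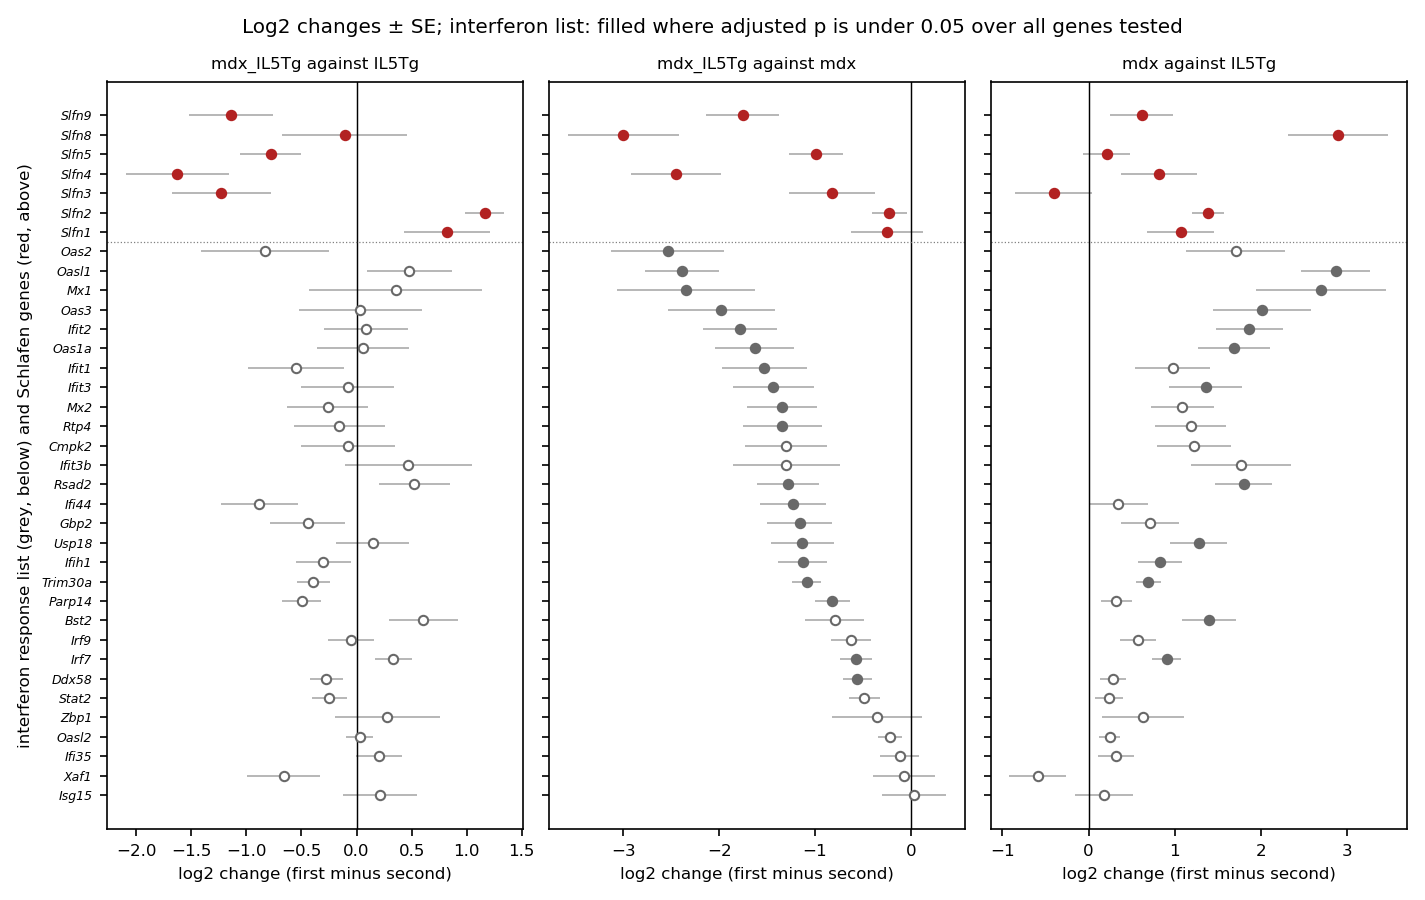
Log2 changes (± SE) of 29 of the 30 interferon response genes and the 7 members in the 3 comparisons, 1 panel each with its own axis, with members in red above and list genes in grey, filled where the adjusted p over all genes tested is under 0.05. The plotted list genes spread on both sides of no change in mdx_IL5Tg against IL5Tg, and each of them but Isg15 lies below it in mdx_IL5Tg against mdx.

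The library that stood highest for the members also did so for the interferon list: IL5Tg S7 was the highest IL5Tg library for 27 of 30 genes and mdx S4 the highest mdx library for 20. In mdx_IL5Tg, S2 was highest for 20 list genes and 4 members, and S3 lowest for 24 list genes and 5 members. The summed level of the list was 341 to 477 CPM in mdx_IL5Tg, 685 to 819 in mdx and 389 to 563 in IL5Tg.

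Of the interferon genes, Ifnb1 and Ifng were looked at. Ifnb1 reached at most 0.149 CPM and Ifng at most 0.529 CPM in any library. Of 13 tested receptors and factors upstream of the list, 3 rose in mdx_IL5Tg against IL5Tg, 2 in mdx_IL5Tg against mdx and 3 in mdx against IL5Tg, beside 4.35%, 10.1% and 11.8% of all genes called higher. Ifngr1, the ligand-binding chain of the interferon-gamma receptor, averaged 440 ± 63.7 CPM in mdx_IL5Tg, 183 ± 10.3 in mdx and 236 ± 22.1 in IL5Tg, a change of 1.26 (SE 0.14) against mdx and 0.90 (SE 0.14) against IL5Tg. Ifnar2, a chain of the type I receptor, rose by 0.38 (SE 0.11) against mdx. Irf5, a transcription factor of inflammatory genes, was 0.67 (SE 0.14) higher in mdx_IL5Tg and 0.57 (SE 0.14) higher in mdx, each against IL5Tg. With 1 library left out, these counts lay between 1 and 5, 1 and 2, and 0 and 4, the last at 0 without mdx S4 or mdx S6 and at 4 without mdx_IL5Tg S3 or mdx S5. Scaled by library totals only, 1 rose and 3 fell in mdx_IL5Tg against mdx.

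Schlafen proteins are best known for growth arrest, so lists for the cell cycle and quiescence were set beside Slfn2. Over all genes, 4.35% were called higher and 2.87% lower in mdx_IL5Tg against IL5Tg. The shares were 10.1% and 11.5% in mdx_IL5Tg against mdx, and 11.8% and 8.96% in mdx against IL5Tg. In mdx_IL5Tg against IL5Tg, 9 of 20 proliferation genes fell, among them Tyms (-2.69, SE 0.50), which makes thymidylate, Top2a (-2.22) and Rrm2 (-2.48). In mdx against IL5Tg 3 of 20 fell, and in mdx_IL5Tg against mdx 1 did, Tyms. The count of 3 was 0 without mdx S4 or mdx S5, 1 without IL5Tg S7, 5 without mdx_IL5Tg S3, 12 without IL5Tg S8 and 10 with DESeq2. Leaving out mdx_IL5Tg S1, mdx_IL5Tg S3, mdx S4, mdx S6 or IL5Tg S9 removed the one lower call against mdx. The 9 in mdx_IL5Tg against IL5Tg were 0 without mdx_IL5Tg S1, 1 without mdx_IL5Tg S2 or IL5Tg S7, 3 without mdx_IL5Tg S3 or IL5Tg S9, 14 without IL5Tg S8 and 17 with DESeq2. The summed level of the list was 782 CPM in IL5Tg S7, and 249 and 405 CPM in IL5Tg S8 and S9. Of 13 quiescence genes, 6 rose and 1 fell in mdx_IL5Tg against mdx and 2 rose in mdx_IL5Tg against IL5Tg, a count that was 0 without mdx_IL5Tg S1 or S2 and 5 without mdx S5, and 1 fell in its place with library totals only. Btg1, an anti-proliferative factor, averaged 4404 ± 324 CPM in mdx_IL5Tg, 2638 ± 221 in mdx and 2745 ± 284 in IL5Tg, and Cdkn1b, the inhibitor p27, 339 ± 18.9 CPM in mdx_IL5Tg, 209 ± 3.51 in mdx and 242 ± 18.9 in IL5Tg. In these genes mdx_IL5Tg stood above both other groups, whereas Slfn2 overlapped between mdx_IL5Tg and mdx.

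STAT5 carries the interleukin-5 signal, and 16 of its known target and pathway genes were tested. The shares called higher and lower over all genes were 4.35% and 2.87% in mdx_IL5Tg against IL5Tg. They were 10.1% and 11.5% in mdx_IL5Tg against mdx, and 11.8% and 8.96% in mdx against IL5Tg. In mdx_IL5Tg against mdx 7 rose and 1 fell, led by Socs2, a feedback inhibitor (2.77), and Bcl2l1, a survival factor (2.71). In mdx_IL5Tg against IL5Tg 4 rose, Bcl2l1 by 0.99 (SE 0.16), where the count was 0 without mdx_IL5Tg S1, 1 without IL5Tg S8 or S9 and 8 without mdx S5. In mdx against IL5Tg 3 rose and 4 fell. With any 1 library left out the number that rose there was below 3, at 0 without IL5Tg S9 and 1 or 2 otherwise, and 4 or 5 fell. Of 12 tested genes of transfer RNA cleavage and the integrated stress response, 2 rose and 1 fell in mdx_IL5Tg against mdx and 2 fell in mdx against IL5Tg. Beside the shares over all genes, so few calls are not read as a response of this list. Set against IL5Tg, mdx_IL5Tg had 0 of 12 past the threshold with edgeR, 2 with DESeq2 and 0 with limma voom, and 3 had an unadjusted p under 0.05. Ddit3, the stress factor CHOP, rose by 0.60 (SE 0.17) in mdx_IL5Tg against mdx, while Trmt2a, a transfer RNA methyltransferase, fell by 0.77, a call that was lost without mdx_IL5Tg S1, S2 or S3.

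Cell type markers moved between the groups as well. All marker counts stand beside the shares over all genes, 4.35% higher and 2.87% lower in mdx_IL5Tg against IL5Tg. In mdx_IL5Tg against mdx these were 10.1% and 11.5%, and in mdx against IL5Tg 11.8% and 8.96%. Of 12 eosinophil genes, 3 rose in mdx_IL5Tg against mdx (median log2 change 1.42) and 7 fell in mdx against IL5Tg (median -2.39). The 3 were 2 without mdx_IL5Tg S1, mdx_IL5Tg S2 or mdx S4 and 8 without mdx S6, and the 7 were 2 without mdx S4 and 4 without mdx_IL5Tg S2 or S3. Between mdx_IL5Tg and IL5Tg, 0 of 12 passed with edgeR, 7 with DESeq2 (3 higher, 4 lower) and 5 with limma voom (1 higher, 4 lower). An unadjusted p under 0.05 was found for 11, of which 5 were higher, and the median was -1.13. Their summed level was 5193 to 5652 CPM in mdx_IL5Tg, 2179 to 2977 in mdx and 5752 to 15988 in IL5Tg, the highest in IL5Tg S7.

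Of 12 macrophage genes, 1 rose and 10 fell in mdx_IL5Tg against mdx, 6 rose in mdx_IL5Tg against IL5Tg and 11 rose in mdx against IL5Tg. The 10 that fell were 4 without mdx_IL5Tg S1 or mdx S4, and the 6 that rose were 0 without mdx_IL5Tg S1 and 1 without mdx_IL5Tg S2, IL5Tg S7 or IL5Tg S8. Their summed level was 2640 to 2817 CPM in mdx_IL5Tg, 2012 to 2918 in mdx and 1677 to 1996 in IL5Tg. C1qb, a complement gene that marks macrophages, picked here after its values were seen, was at 11.2, 15.5 and 2.38 CPM in mdx_IL5Tg, 63.2, 43.1 and 29.4 CPM in mdx and 1.12, 0.422 and 1.53 CPM in IL5Tg. Slfn8 had its highest level in the same group. Between mdx_IL5Tg and IL5Tg, C1qb differed by 3.25 (SE 0.67) on the log2 scale and Slfn8 by -0.11. The Slfn8 value rests on 1 library, since it was 1.10 when IL5Tg S7 was left out. A link between the 2 genes was not tested.

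Of 10 monocyte genes, 1 rose and 5 fell in mdx_IL5Tg against mdx, and 6 rose and 1 fell in mdx against IL5Tg. Their sum was 846 to 950 CPM in mdx_IL5Tg, 799 to 1049 in mdx and 532 to 775 in IL5Tg. Of the same 10, 1 rose and 1 fell in mdx_IL5Tg against IL5Tg. The sum of 12 T and NK cell genes was 3.92 to 7.48 CPM in mdx_IL5Tg, 9.81 to 14.2 in mdx and 5.65 to 11.1 in IL5Tg. Of the 5 that were tested, 1 rose and 1 fell in mdx_IL5Tg against mdx, and 2 rose and 2 fell in mdx against IL5Tg. In mdx_IL5Tg against IL5Tg 0 of 5 passed with edgeR, and 2 had an unadjusted p under 0.05, both lower in mdx_IL5Tg. Of 6 fibroblast genes 5 fell in mdx_IL5Tg against mdx and 5 rose in mdx against IL5Tg, and of 8 muscle fibre genes 7 fell and 8 rose in the same 2 comparisons. Without mdx_IL5Tg S1 or mdx S4, 1 fibroblast and 1 muscle fibre gene fell. Of the muscle fibre genes 5 rose in mdx_IL5Tg against IL5Tg, and 1 without IL5Tg S7.

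The dendritic and class II list was low in the IL5Tg group, as Slfn1 and Slfn2 were. The same held for the summed macrophage, monocyte and muscle fibre lists, each lower in every IL5Tg library than in any other. The muscle fibre sum was 14.0 to 17.0 CPM in mdx_IL5Tg, 27.2 to 59.4 in mdx and 4.13 to 5.32 in IL5Tg. Of 8 tested dendritic and class II genes, 5 rose in mdx_IL5Tg against IL5Tg and 6 in mdx against IL5Tg, and 1 rose and 2 fell in mdx_IL5Tg against mdx. The 5 were 2 without mdx_IL5Tg S1, mdx_IL5Tg S2 or IL5Tg S9 and 3 without IL5Tg S8, and the 2 that fell were 0 without mdx_IL5Tg S1. The summed level was 221 to 382 CPM in mdx_IL5Tg, 295 to 384 in mdx and 62.5 to 67.3 in IL5Tg. Of 9 neutrophil genes, 1 rose in mdx_IL5Tg against IL5Tg although the median was -2.46, 1 rose and 1 fell in mdx_IL5Tg against mdx, and 2 fell in mdx against IL5Tg. The first was lost without mdx_IL5Tg S1, mdx_IL5Tg S2, IL5Tg S7 or IL5Tg S9, and the 2 were 5 without mdx S6. Their sum was 108 to 160 CPM in mdx_IL5Tg, 28.5, 12.6 and 314 CPM in mdx S4, S5 and S6, and 1232, 422 and 412 CPM in IL5Tg S7, S8 and S9. Single libraries, mdx S6 and IL5Tg S7, thus stood above the rest of their groups. Of 6 endothelial genes, 1 fell in mdx_IL5Tg against mdx and 2 rose in mdx against IL5Tg. The B cell sum was 16.1 to 18.9 CPM in mdx_IL5Tg, 11.4 to 15.4 in mdx and 17.9 to 35.6 in IL5Tg. No gene of these lists was at 0 in all libraries. Their part in the Schlafen and interferon values was not tested.

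The neighbours of the cluster were set beside it. Of 27 protein-coding genes within 500 kb, 20 were tested, and their median log2 change was 0.05 in mdx_IL5Tg against IL5Tg, -0.19 in mdx_IL5Tg against mdx and 0.18 in mdx against IL5Tg. In the same order, 2 rose and 0 fell, 1 rose and 2 fell, and 3 rose and 1 fell. Over all genes 4.35% rose and 2.87% fell, 10.1% and 11.5%, and 11.8% and 8.96%. Beside these shares, so few calls are not read as a trait of the locus. The neighbours named here are those that passed. Ccl3, a chemokine, rose by 1.06 (SE 0.24, edgeR adjusted p = 0.032) and Wfdc17 by 3.01 (SE 0.67) in mdx_IL5Tg against IL5Tg. Wfdc17 was near the floor there, at means of 0.381 CPM in mdx_IL5Tg and 0.0447 CPM in IL5Tg. Ccl6, a chemokine abundant in eosinophils, averaged 7227 ± 556 CPM in mdx_IL5Tg, 1483 ± 529 in mdx and 4787 ± 347 in IL5Tg, higher by 2.28 (SE 0.24) in mdx_IL5Tg against mdx and changed by -1.69 (SE 0.24) in mdx against IL5Tg. Ccl5 and Wfdc17 changed by -2.25 and -2.56 in mdx_IL5Tg against mdx and by 2.37 and 5.58 in mdx against IL5Tg, at low levels of at most 0.918 and 2.30 CPM on average. Unc45b, a myosin chaperone, was also higher in mdx than in IL5Tg, by 1.15.

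**Figure D4:**
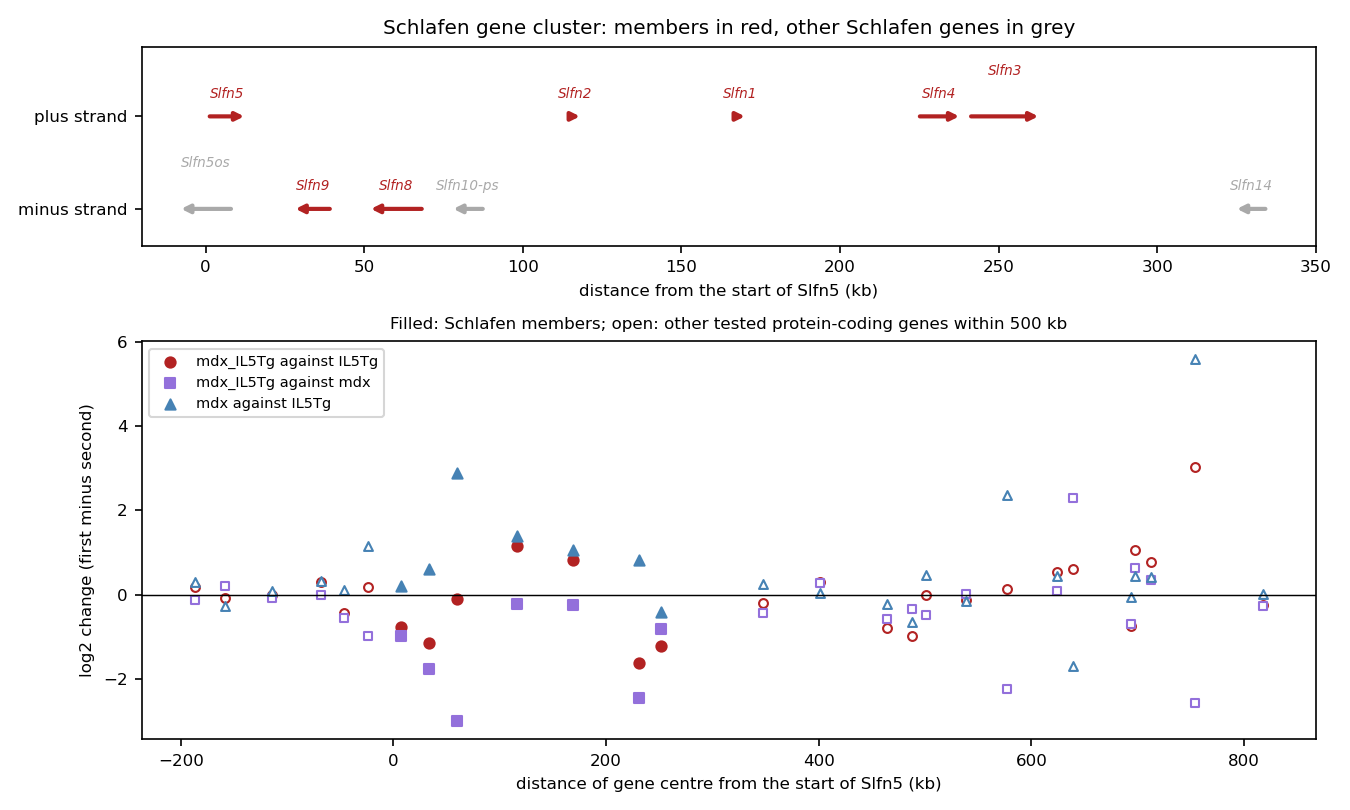
Map of the Schlafen cluster (upper panel, gene spans to scale in kb from the start of Slfn5, with arrows for strand, members in red and other Slfn genes in grey) and log2 changes of genes by distance in kb (lower panel, filled for members and open for other tested protein-coding genes, with mdx_IL5Tg against IL5Tg as circles, mdx_IL5Tg against mdx as squares and mdx against IL5Tg as triangles). Slfn8 reaches -3.00 and 2.89, while most open points lie close to 0 and Wfdc17 is at 5.58 in mdx against IL5Tg.

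The genes whose pattern lay closest to each member were found by the root-mean-square difference of centred log2 CPM over the 9 libraries, among 11034 genes with a mean of at least 1 CPM. For Slfn5 they were Rapgef5 (0.0658), Mras (0.0717) and Enpp3 (0.110), and for Slfn2 Relb (0.129), Unc93b1 (0.146) and Lonp1 (0.150). For Slfn9 they were Klhl23 (0.136), Tnfsf10 (0.203) and Myom1 (0.223), and for Slfn3 Prom1 (0.239), Dnm3 (0.241) and Car13 (0.269). Slfn1 lay nearest to Slc30a1 (0.278), Cyp4f16 (0.293) and Pak1 (0.305). Slfn4 lay nearest to Ikbke (0.384), Alpk1 (0.403) and Mmp8 (0.405), and Slfn8 to F10 (0.413), Tnip3 (0.439) and Fam105a (0.446). These last 2 members thus had the largest differences from their nearest genes. The measure is not scaled to a gene's own spread.

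Among the members themselves the closest pairs were Slfn5 and Slfn9 (0.371) and Slfn3 and Slfn5 (0.392), and Slfn1 and Slfn2 were at 0.474. Slfn3 and Slfn8 were farthest apart, at 1.56, and Slfn8 was no member's nearest. No member was among the 3 nearest genes of another.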

How the data were processed

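RNA of sorted eosinophils was sequenced in 9 libraries. The values deposited are the authors' RSEM 1.3.0 estimates, expected counts for each gene. The submitters' processing notes also name cutadapt 2.10, STAR 2.5.3, limma and build mm10, with no settings. No annotation or strand setting is named in the sources used here. RSEM divides reads that fit several genes, and 6.03% of values were not whole (tolerance 0.001). They were rounded. Genes were kept by filterByExpr (minimum count 10, 15886 genes), scaled by TMM and tested with edgeR 4.0.16 (quasi-likelihood, robust, R 4.3.3), 9 libraries in 1 fit, with p-values adjusted by Benjamini-Hochberg at 0.05. The standard error comes from the F statistic. The design text calls the replicates biological, but nothing names separate animals, so p-values measure the spread between these samples. Columns carry S numbers that the labels do not, so they were tied to groups only.

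The members and lists were chosen with earlier results of these data known. Named genes are all Slfn genes, up to 5 genes per pathway list with the smallest p, tested protein-coding neighbours and the 3 genes closest to each member. Il5, Siglecf and Ccr3 were named outside this rule, as were a few genes chosen after their values were seen (Isg15, Oasl2, the C1q gene, Ifnb1 and Ifng). Alternatives were DESeq2 1.42.0, limma 3.58.1 voom, no filter, a filter of 50 counts in 3 libraries, and scaling by RLE factors or by library totals. Further ones were fits of the compared groups alone, and leaving out each library in turn or both IL5Tg S7 and mdx S5. In the last, related genes were summed, Slfn3 with Slfn4, and Slfn8 with Slfn9 and Slfn10-ps. The fit was checked on simulated data with 50 changed genes at each fold. At a 2-fold change it recovered 22% in mdx_IL5Tg against IL5Tg, 30% in mdx_IL5Tg against mdx and 18% in mdx against IL5Tg. At a 4-fold change it recovered 72%, 72% and 78%. Genes short of the threshold are therefore not shown to be unchanged. Some genes counted in the lists are not reported here by name.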

Additional observations from a re-analysis of the deposited data

How the results depend on the processing

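No paired analysis was possible because the columns carry S numbers that the labels do not tie to numbered replicates. Over 378 member values under 18 alternative settings, 344 kept their direction and their side of the threshold, 26 changed side only and 8 changed sign. For Slfn8 in mdx_IL5Tg against IL5Tg the sign change was to 0.38 with limma voom, 0.05 without mdx_IL5Tg S3, 1.10 when IL5Tg S7 was left out and 1.06 when IL5Tg S7 and mdx S5 both were, over -0.51 to 1.10 with 1 library left out. For Slfn1 in mdx_IL5Tg against mdx it was to 0.32 without mdx S4 (-0.41 to 0.32). For Slfn3 in mdx against IL5Tg it was to 0.061 without IL5Tg S7 (-0.75 to 0.061), 0.33 when both were left out and 0.12 with Slfn3 and Slfn4 summed. Slfn5 in mdx_IL5Tg against mdx lost its call with only the groups compared (-0.89) and when any 1 of 5 libraries was left out, and Slfn8 in mdx against IL5Tg lost its call with no filter (2.91).

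The count of members past the threshold in mdx_IL5Tg against IL5Tg was 1 (higher), and 4 with DESeq2 or with no filter (1 higher, and Slfn3, Slfn4 and Slfn9 lower) and 2 with library totals only (1 higher, and Slfn4 lower). In mdx against IL5Tg it was 2, and 5 when IL5Tg S7 and mdx S5 both were left out. With 1 library left out, it ranged from 1 to 2 in mdx_IL5Tg against IL5Tg, from 2 to 4 in mdx_IL5Tg against mdx and from 2 to 3 in mdx against IL5Tg. The interferon count ranged likewise from 0 to 1, from 2 to 20 and from 4 to 18. When both were left out it was 3 in mdx_IL5Tg against IL5Tg (all higher in mdx_IL5Tg, as was the 1 without IL5Tg S7) and 20 in mdx against IL5Tg. Over all genes, 1147 passed in mdx_IL5Tg against IL5Tg, and 2464 with DESeq2, 1816 with only the groups compared and 110 to 2641 with 1 library left out. The cause of these changes was not tested. Library totals in place of TMM moved the median of all genes to -0.27, -0.46 and 0.12 in the 3 comparisons, and calls in mdx_IL5Tg against IL5Tg then split into 311 higher and 981 lower, against 691 and 456 with TMM. Low counts limit Slfn4 and Slfn8 most, which rested on as few as 23 and 14 counts in a library.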
